A study of Glycine max with 13 samples.

Results

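Maize ARF10 and ARF25 are auxin response factors, and their binding events on soybean DNA are described here from 1 deposited list each. All 12286 events of the ARF10 list and all 19058 events of the ARF25 list were taken, 31344 of the 177320 events in the 12 deposited lists. An event is the single base at which the authors placed binding. In the assay, DNA affinity purification sequencing (DAP-seq), a tagged protein is mixed with purified, fragmented DNA and the DNA it retains is sequenced. The DNA came from soybean (Glycine max) leaf for all 13 samples, which are 12 maize ARFs and a GST-HALO tag control that was not analysed here. Each ARF had 1 library, so no comparison between ARF10 and ARF25 has a replicate check. The labels give no treatment, age or genotype of the plants. Extracted DNA carries no nucleosomes, and a maize protein met the DNA of another species, so the events describe what the proteins can bind and not where they sit in a plant.

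Auxin response factors recognise short DNA elements, known as auxin response elements, through a DNA-binding domain near the start of the protein, and they commonly bind as dimers. Auxin changes transcription through them: repressor proteins of the Aux/IAA family are degraded in its presence, which frees activating ARFs. ARF10 and ARF25 belong to clade B of the maize family, generally described as repressors, and clade A holds the members generally described as activators. Clades were taken as background knowledge and are not in the labels. The other clade B lists are those of ARF7, ARF14, ARF36 and ARF39, and the clade A lists are those of ARF4, ARF16, ARF18, ARF27, ARF29 and ARF34.

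Most ARF10 events had an ARF25 partner, and about as many ARF25 events had an ARF10 partner as not. Within 100 bp of an ARF25 event lay 9541 of the 12286 ARF10 events, or 77.7% (Wilson 95% interval 76.9% to 78.4%). Of the 19058 ARF25 events, 9752 lay within 100 bp of an ARF10 event, or 51.2% (50.5% to 51.9%). Over both lists the share was 61.6%. This left 2745 ARF10-only and 9306 ARF25-only events. These intervals cover counting error only. The read depth of both libraries is unknown, so an event without a partner may have had one below the threshold of the other list.

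Most shared events were in pairs of nearest neighbours, so lists of unequal length by themselves leave unequal numbers of unpartnered events. With the ARF25 list reduced to its 12286 strongest events there were 4477 ARF10-only and 4390 ARF25-only events, and the shared shares were 63.6% and 64.3%. That these numbers are nearly equal follows from the equal lengths and is no separate result. Unpartnered events mostly lay far from the other list and not just past the limit. Of the ARF10-only events, 87.5% were more than 1000 bp from any ARF25 event, and of the ARF25-only events 94.2% were that far from any ARF10 event. At the edge of the limit, 83 ARF10 events had their nearest ARF25 event at 91 to 100 bp and 42 farther off, up to 110 bp away, with median percentiles of strength of 46 and 28.2. For ARF25 there were 100 and 55 such events, and their medians were closer, at 39 and 36.5.

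Strong events of either protein were nearly always shared, and weak ones much less often. Strength is the authors' value for an event and was used only as a percentile within its list, where 100 marks the strongest event. Shared ARF10 events had a median percentile of 57.2 (quartiles 33.0 and 79.4), against 28.3 (13.1 and 51.1) for ARF10-only events. Shared ARF25 events had a median of 68.8 (43.3 and 86.5), against 33.9 (15.4 and 54.0) for ARF25-only events. In the strongest decile of ARF10, 97.4% of 1231 events had an ARF25 partner and 32 had none. The weakest decile had partners for 56.8% of 1278 events. For ARF25 these shares were 96.3% of 1908 events, with 71 unpartnered, and 18.2% of 1981 events.

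**Figure D1:**
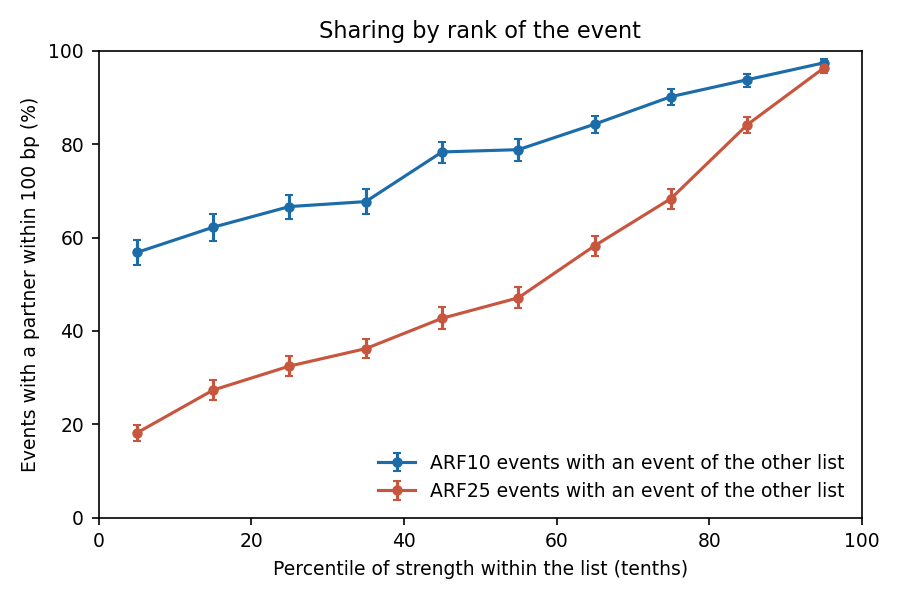
Share of events with a partner in the other list (vertical axis, percent) by decile of strength percentile within the own list (horizontal axis); points are shares and bars Wilson 95% intervals, for ARF10 (blue) and ARF25 (red). Both lines climb, from 56.8% to 97.4% for ARF10 and from 18.2% to 96.3% for ARF25, and they come within 2 points of each other in the strongest decile.

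The order of the shared events was alike in both lists but far from identical. ARF10 and ARF25 events that were each other's nearest neighbour within 100 bp made 9445 pairs, and the percentiles of a pair had a Spearman rho of 0.66 across pairs, a description since events of 1 library are not replicates. It ranked 3rd of the 66 pairs of lists, after ARF16 with ARF34 (0.73) and ARF14 with ARF36 (0.72). Percentiles differed by at most 10 points in 38.1% of the pairs and by over 50 points in 646 pairs, of which 516 ranked higher in ARF25 and 130 higher in ARF10. The lists have different lengths, and the percentile in ARF25 was higher by a median of 6.98 points.

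Many of the strongest events coincided. Of the 1190 paired events in the strongest decile of ARF10, 885 (74.4%) were also in the strongest decile of ARF25, which is 48.8% of the 1812 paired events in that decile. The weakest deciles had 99 pairs in common, of 720 in ARF10 and 337 in ARF25. Of the 100 strongest ARF10 events, 94.0% had some ARF25 partner, but 63.0% had one among the 100 strongest of ARF25. For the 1000 strongest these shares were 97.7% and 60.5%, and for the 4000 strongest 93.0% and 64.9%. Strong events of one protein were rarely missing from the other list, but often had a partner of lower rank there.

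**Figure D2:**
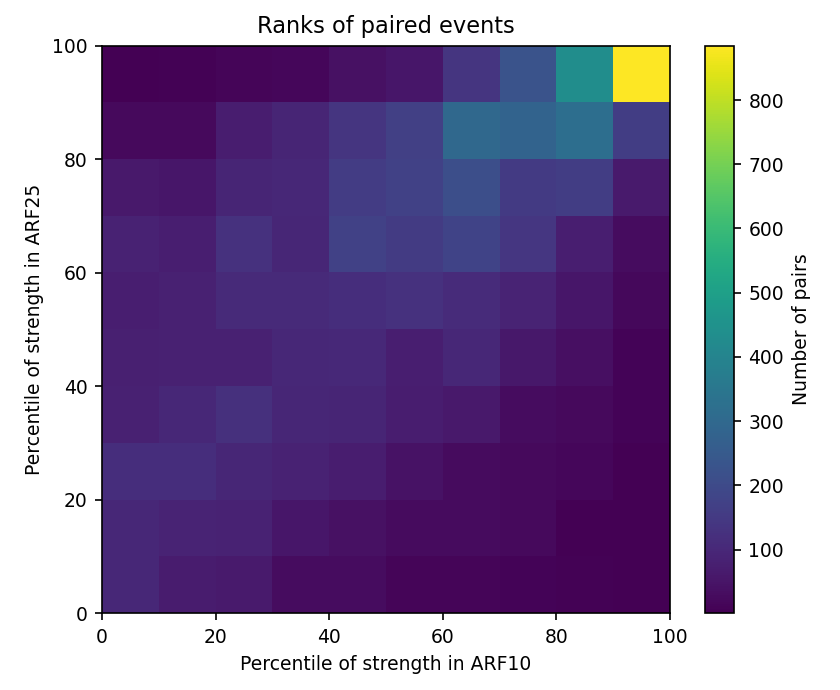
Number of paired events (colour) by percentile of strength in ARF10 (horizontal axis) and in ARF25 (vertical axis), in deciles. The brightest square, where both percentiles exceed 90, holds 885 pairs, and the square of both weakest deciles holds 99.

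Paired events lay close together, at a few recurring distances. The absolute distance between the ARF10 and the ARF25 position had a median of 13 bp (quartiles 6 and 29 bp), with 44.3% of pairs within 10 bp and 90.8% within 50 bp. ARF10 lay at the higher coordinate in 4697 pairs and at the lower in 4648, and the median signed offset was 0 bp. Identical positions were nonetheless uncommon, in 100 pairs (1.06%). Instead the commonest distance was 4 bp, in 1085 pairs (11.5%), followed by 6 bp in 754 pairs (7.98%), while 5 bp had 423 pairs and 7 bp had 196.

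The peaks were the same size on either side. At 4 bp, ARF10 was at the higher coordinate in 540 pairs and at the lower in 545, and at 6 bp in 394 and 360. Distances of 4 to 6 bp made up 23.9% of all pairs (Wilson 95% interval 23.1% to 24.8%), against 8.99% for 0 to 3 bp and 8.55% for 7 to 9 bp. The share at 4 to 6 bp ranged from 21.3% (18.9% to 23.8%) of pairs with a mean percentile under 25 to 26.0% (24.5% to 27.6%) of those at 75 or more. Over the same range the median distance went from 18 bp to 10 bp. The settings by which events were placed are not stated by the labels or files, and their part in these distances was not tested.

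**Figure D3:**
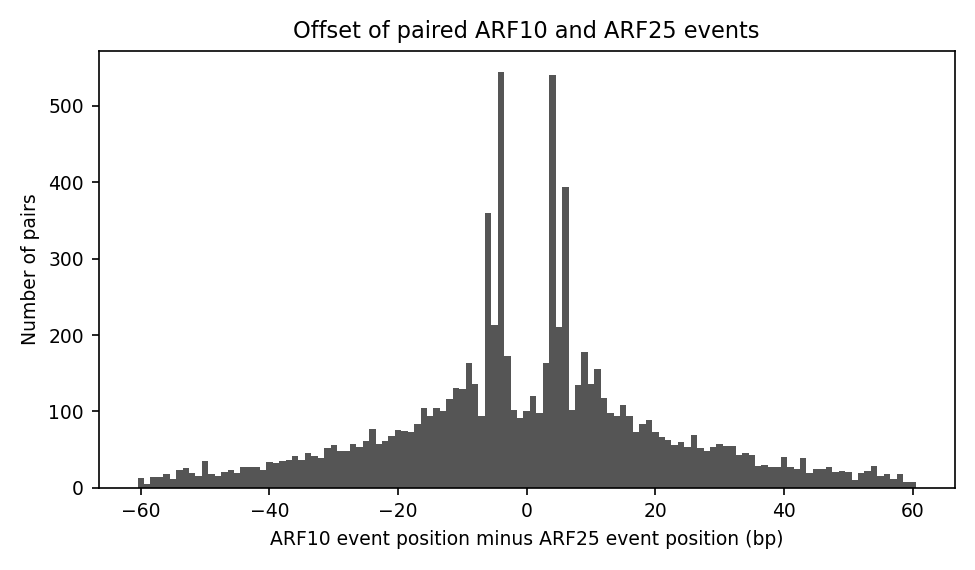
Number of pairs (vertical axis) by ARF10 position minus ARF25 position in bp (horizontal axis, shown from -60 to 60). The tallest bars stand at 4 bp on either side, with 540 and 545 pairs, and at 6 bp, with 394 and 360, around a low centre of 100 pairs at 0.

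The distance that recurred depended on the partner. ARF10 lay most often 2 bp from ARF36 (22.0% of 8418 pairs) and from ARF14 (24.1% of 5162), 5 bp from ARF39 (26.3% of 2767) and 3 bp from ARF29 of clade A (27.4% of 1870). ARF25 lay most often 3 bp from ARF7 (23.7% of 8990) and 2 bp from ARF29 (18.4% of 2265). The pair ARF10 and ARF25 was not among the closest in position. Its median of 13 bp ranked 43rd from the smallest of the 66 pairs of lists, against 6 bp for ARF10 with ARF36, 8 bp for ARF10 with ARF14, 10 bp for ARF25 with ARF7 and 11 bp for ARF25 with ARF36. Of the 12286 ARF10 events, ARF25 nevertheless held more than ARF36 did (77.7% against 69.2%), although the ARF36 list is longer, with 22516 events.

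Shared events were held by more of the 10 other lists than unpartnered ones. A list held an event when it had one of its own within 100 bp. Shared ARF10 events were held by a median of 3 other lists, ARF10-only events by 2 and ARF25-only events by 1. No other list held 9.89% of the shared ARF10 events, 28.1% of the ARF10-only events (770) and 32.8% of the ARF25-only events (3048), against 18.3% of all events of both lists. All 10 other lists held 247 of the 9541 shared ARF10 events and 253 of the 9752 shared ARF25 events. They held 2 of the 2745 ARF10-only events and 14 of the 9306 ARF25-only events.

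ARF10-only events were held about equally often by clade A lists alone (6 lists) and by other clade B lists alone (4 lists). ARF25-only events, like shared events, were held more often by clade B lists alone than by clade A lists alone. Of the ARF10-only events, 27.3% (25.7% to 29.0%) were held by clade A lists and no other clade B list, and 24.1% (22.6% to 25.8%) by clade B lists alone. The mean share held per list was 18.5% in clade B and 20.7% in clade A. These means depended on the length of the ARF25 list. With that list reduced to its 12286 strongest events they were 24.5% and 20.7%. Of the ARF25-only events, 8.28% (7.74% to 8.86%) were held by clade A lists alone and 43.1% (42.1% to 44.1%) by clade B lists alone. Shared ARF10 events gave 6.53% and 41.0%, and shared ARF25 events 6.31% and 41.2%. The ARF25-only shares for 1 clade alone were thus close to those of shared events, but the remaining shares were not. Lists of both clades held 15.8% of the ARF25-only and 20.5% of the ARF10-only events. They held 42.6% of the shared ARF10 and 42.7% of the shared ARF25 events. No other list held 32.8% of the ARF25-only events, against 9.89% and 9.86% of the shared ones. At least 4 clade A lists and none of the 4 other clade B lists held 238 of the 2745 ARF10-only events and 207 of the 9306 ARF25-only events. They held 239 of the 9541 shared ARF10 events and 235 of the 9752 shared ARF25 events. Together these classes make up all events of both lists.

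List by list, 3 of the 6 clade A lists held ARF10-only events about as often as shared ones. The ARF4 list held 34.8% of the ARF10-only events, 35.7% of the shared ARF10 events and 13.2% of the ARF25-only events, against 28.9% of all events of both lists. The ARF34 list held 36.3%, 37.7% and 16.8% (31.4% of all), and the ARF16 list 24.2%, 26.1% and 9.95% (21.1% of all). These were the longest clade A lists, and in each the ARF10-only share lay within 2 percentage points of the shared one.

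The shorter clade A lists held a smaller share of ARF10-only than of shared events, by 1.44 times in ARF27, 1.81 times in ARF29 and 2.74 times in ARF18, the last a larger fold than in the clade B lists ARF7 (2.46) and ARF36 (2.12). ARF27 held 17.9% of the ARF10-only, 25.8% of the shared ARF10 and 10.6% of the ARF25-only events (20.6% of all), ARF29 held 9.54%, 17.3% and 7.04% (13.6% of all), and ARF18 held 1.82%, 4.99% and 1.39% (3.64% of all). In all 6 clade A lists the ARF25-only share was the lowest of these 3.

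The other clade B lists showed the reverse order, with ARF10-only events lowest in each. ARF36 held 36.9% of the ARF10-only, 48.3% of the ARF25-only and 78.5% of the shared ARF10 events (65.9% of all). ARF7 held 24.4%, 36.2% and 60.2% (50% of all), ARF14 held 10.8%, 22.7% and 51.8% (39.7% of all), and ARF39 held 1.93%, 9.75% and 29.1% (21.1% of all). The ARF25-only share was thus 1.31 times (ARF36) to 5.05 times (ARF39) the ARF10-only share in clade B, and 0.38 times (ARF4) to 0.76 times (ARF18) in clade A, with no overlap between the clades.

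**Figure D4:**
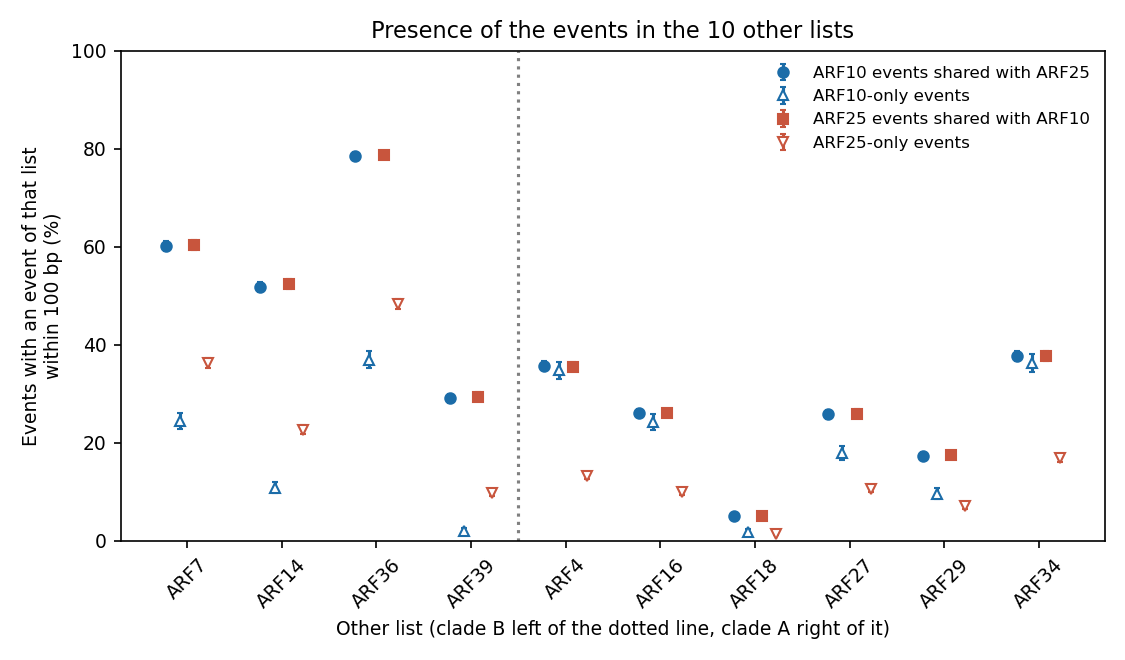
Share of events with an event of the named list within 100 bp (vertical axis, percent) for each of the 10 other lists (horizontal axis); filled circles and squares are shared ARF10 and ARF25 events, open upward triangles ARF10-only and open downward triangles ARF25-only events, with Wilson 95% intervals. In ARF4, ARF16 and ARF34 the ARF10-only events sit beside the shared ones (34.8% and 35.7% in ARF4), while in the 4 clade B lists they are the lowest class.

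These differences were tested with the other lists as units, each a single library, so the p-values measure the spread between lists. The lists are not independent, since those of a clade overlap to differing degrees. For example, 98.0% of ARF18 events lay within 100 bp of an ARF16 event and 93.1% of ARF39 events within 100 bp of an ARF36 event. The tests take no account of this, so their p-values may be too small. Of these, 4 tests were planned. The mean log2 ratio of the ARF25-only to the ARF10-only share was 1.09 ± 0.88 (SD, n = 4 lists) in clade B and -0.89 ± 0.43 (SD, n = 6 lists) in clade A. This difference of 1.99 gave p = 0.0048 in a two-sided exact permutation test over 210 assignments of the lists to the clades, the smallest p the design allows (Benjamini-Hochberg adjusted over 4 tests 0.0063). Averaged over the 10 lists without regard to clade, the shares did not differ by the test: 17.6% for ARF25-only and 19.9% for ARF10-only, with ARF25-only higher in 4 of 10 lists (two-sided exact sign-flip permutation p = 0.58, adjusted 0.58). Both lists that define the classes are themselves of clade B, and the part of this in the contrast was not tested.

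Shared events exceeded both kinds of unpartnered event in 10 of 10 lists. Shared events were by definition found in both libraries and ranked higher in their own list, so an excess was likely beforehand. The sign-flip p below is the smallest that 10 lists allow. The shared ARF10 share exceeded the ARF10-only share by 16.8 ± 17.4 percentage points (SD, n = 10 lists; exact sign-flip permutation p = 0.0020, adjusted 0.0039). For ARF25 the excess was 19.2 ± 8.3 points (SD, n = 10 lists; exact sign-flip permutation p = 0.0020, adjusted 0.0039). Among events at or below the median percentile of their own list, the ARF10 excess was 9.84 points and no longer passed (exact sign-flip permutation p = 0.10, adjusted 0.14). A further 2 ratios were tested after the values had been seen. The log2 ratio of shared to ARF10-only shares was 2.14 ± 1.29 (SD, n = 4 lists) in clade B and 0.51 ± 0.57 (SD, n = 6 lists) in clade A (exact permutation p = 0.014, adjusted over 6 tests 0.021). Without ARF39 that difference fell from 1.63 to 1.04 and without ARF14 to 1.59, with adjusted exact permutation p of 0.057 and 0.054. For shared over ARF25-only, the ratio was 1.06 ± 0.42 (SD, n = 4 lists) and 1.40 ± 0.23 (SD, n = 6 lists), a difference that did not pass (exact permutation p = 0.15, adjusted 0.18). That difference, -0.34, turned to 0.98 with each other list reduced to its 1106 strongest events, so no direction is given for it.

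The pattern was also present among the weaker events. At or below the median percentile of ARF10, the clade A lists held on average 19.5% of 2058 ARF10-only events and 18.2% of 4054 shared events, while the other clade B lists held 18.1% and 44.6%. Above the median the clade A means were 24.4% of 687 ARF10-only and 29.3% of 5487 shared events, and the clade B means 19.9% and 62.4%. For ARF25 events at or below the median, the clade A mean was 9.33% of 6462 ARF25-only and 21% of 2932 shared events, and the clade B mean 25.3% and 38.4%. Among these weaker events the log2 contrast between clades of ARF25-only over ARF10-only was 1.77 (adjusted exact permutation p = 0.0095). This setting was chosen after seeing the data.

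Inside the ARF4 and ARF34 lists, ARF10-only events ranked about as high as shared ones, while in the other clade A lists they ranked lower. The median percentile in the ARF4 list was 70.8 for the 952 ARF10-only pairs and 71.2 for the 3322 shared pairs, and in the ARF34 list 69.4 for 995 and 67.0 for 3531. The medians of ARF10-only and shared pairs were 60.9 and 67.4 in ARF16, 56.9 and 67.9 in ARF27, 48.5 and 66.3 in ARF29, and 39.1 and 58.1 in ARF18, where the ARF10-only pairs numbered 50. In the ARF10 list itself, ARF10-only events had a median percentile of 28.3. In the clade B lists the ARF10-only pairs ranked lower than the shared ones, at 43.2 against 75 in ARF36, 48.4 against 71.3 in ARF7, 43.7 against 63.5 in ARF14 and 31.3 against 55.9 in ARF39. ARF25-only pairs ranked below ARF10-only pairs in ARF4 (55.8) and ARF34 (50.5), within 2 points of them in ARF16 (59.5) and ARF27 (55.5), and above them in ARF29 (57.1) and ARF18 (52.6). The positions matched less closely for ARF10-only than for shared pairs in all 6 clade A lists. Median distances ran from 23 against 17 bp in ARF34 to 25.5 against 8 bp in ARF18, with 23 against 16 bp in ARF4. In clade B they were 25 against 15 bp in ARF7, 12 against 8 in ARF14, 8 against 6 in ARF36 and 8 for both in ARF39.

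The other clade B lists were split by ARF25 in the same way for comparison. The mean clade A share of ARF10 events without an ARF25 partner was 20.7%, which is 0.84 times that of ARF10 events with one (24.6%). The corresponding ratio was 0.20 for ARF7, 0.34 for ARF36, 0.35 for ARF14 and 0.43 for ARF39. ARF10 was thus the highest of the 5 lists, a description of single libraries without a test. For the remaining clade B lists, the ratio for ARF10 was 0.34, inside the range of the others (0.22 for ARF7 to 0.56 for ARF14).

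Some combinations of other lists recurred. After events held by no other list, the commonest among ARF10-only events were ARF36 alone (237 events), ARF7 with ARF36 (151) and ARF7 alone (116). The next was a clade A combination, ARF4, ARF16, ARF27 and ARF34 together (103), followed by ARF4 alone (97) and by ARF4, ARF16 and ARF34 (96). Among ARF25-only events the first 6 after none held clade B lists alone, led by ARF36 alone (1099), ARF7 with ARF36 (736) and ARF7, ARF14 and ARF36 together (699). All 4 other clade B lists held 2265 (23.7%) of the shared ARF10 events and 2337 (24.0%) of the shared ARF25 events. They held 433 (4.65%) of the ARF25-only events and 32 (1.17%) of the ARF10-only events.

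All classes were spread over the 20 chromosomes in similar proportion. The shared part of the ARF10 events ranged from 75.5% on chromosome 18 to 80.6% on chromosome 13, and that of the ARF25 events from 48.6% on chromosome 1 to 54.2% on chromosome 8. ARF10-only events occurred at 2.51 to 3.23 per Mb of covered span and ARF25-only events at 8.23 to 11.1 per Mb. In windows of 1 Mb, 964 of the 969 windows with any event had a shared ARF10 event, 898 an ARF10-only and 969 an ARF25-only event. The fullest window held 21 ARF10-only events.

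Shared events were somewhat rarer in the middle of chromosomes than unpartnered ones. The middle was taken as 25% to 75% of the stretch between the first and the last event of any list on a chromosome, and it held 41.8% of the shared ARF10 events (Wilson 95% interval 40.8% to 42.7%), 47.6% of the ARF10-only (45.8% to 49.5%) and 45.9% of the ARF25-only events (44.9% to 47.0%), against 43.5% of all events of both lists. The ARF10-only share was above the shared one on 18 of 20 chromosomes, and so was the ARF25-only share. Rank moved with this too. Among events above the median percentile, 39.2% of the shared and 47.2% of the ARF10-only events lay in the middle, and at or below it 45.2% and 47.8%. For ARF25 the gap between shared and unpartnered events was smaller within each range of rank than over all ranks, at 40% against 42% above the median and 45.7% against 47.7% at or below it, with overlapping intervals. The difference was not tested, since neighbouring events of 1 library are not replicates.

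**Figure D5:**
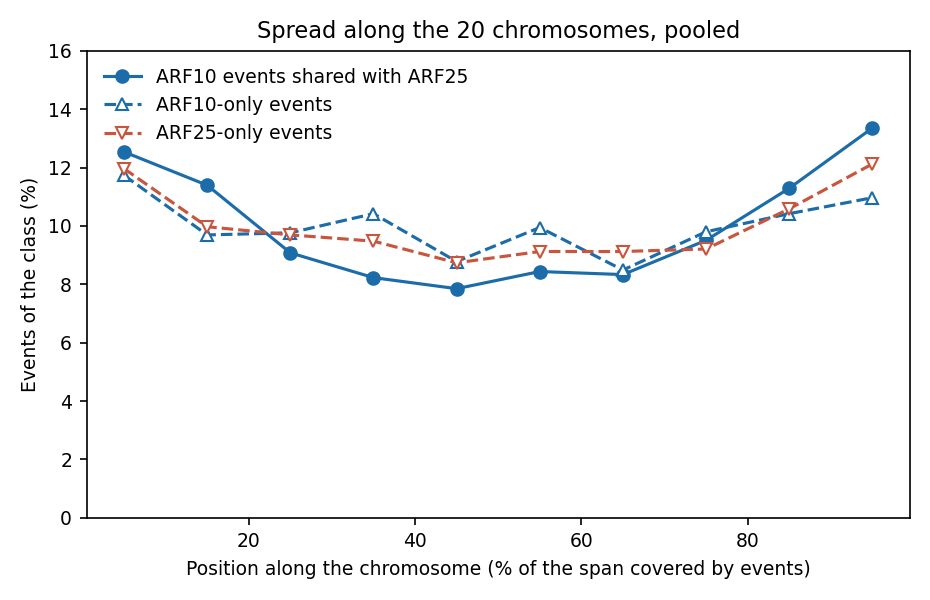
Share of the events of a class (vertical axis, percent) in each of 10 equal parts of the covered span of a chromosome (horizontal axis), pooled over 20 chromosomes, for shared ARF10 events (filled circles), ARF10-only events (open upward triangles) and ARF25-only events (open downward triangles). All 3 lines are lower in the middle than at the ends, and the stretch from 25% to 75% of the span holds 41.8%, 47.6% and 45.9%.

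Single sites are given by chromosome and position, with bases counted from 1. No label or file names the genome build, and neither genes nor sequence at these sites were analysed here. The strongest event of both lists was the same, on chromosome 12 at 40632132 (ARF10) and 40632130 (ARF25), with strengths of 7887 and 17268, held also by ARF7, ARF14 and ARF36 and by no clade A list. Another one nearby, at 40628944 and 40628942, had strengths of 4032 and 6309 and was held by 9 other lists. The remaining 3 of the 5 pairs with the highest mean percentile lay on chromosome 11 at 16083991 (ARF10; strengths of 4689 and 5121, 9 other lists), on chromosome 15 at 19636771 (1900 and 1385, 9 other lists) and on chromosome 9 at 39723282 (1340 and 3089, 7 other lists). Their positions in both lists were 1 to 18 bp apart. Strengths of different lists have no stated common scale.

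Unpartnered events of high strength were few, and a high strength did not always go with a high −log10 q. The 5 ARF10-only events named here had a −log10 q from 7.37 (chromosome 12 at 24039633) to 41.78 (chromosome 17). The median over the ARF10 list was 7.05. The first ARF10-only event, on chromosome 15 at 19634445, had a strength of 365 (percentile 99.9), lay 2217 bp from the nearest ARF25 event and was held by all 4 other clade B lists and no clade A list. The next was on chromosome 8 at 41312130 (strength 193, held by ARF7 and ARF36). Of the others, those on chromosome 12 at 24042515 and 24039633 (strengths of 188.2 and 144) were held by no other list, and one on chromosome 17 at 30853907 (strength 160.6) had its nearest ARF25 event 132 bp away, just outside the limit, with 6 other lists present.

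The first ARF25-only event was the second strongest of its list, on chromosome 20 at 32738795, with a strength of 12203 and a −log10 q at the ceiling of that column. The nearest ARF10 event lay 4463 bp away, although 8 other lists, 5 of them clade A, held the position. On chromosome 15 at 28347804 an ARF25-only event (strength 430.5) was held by ARF16, ARF29 and ARF34 alone. Others on chromosome 7 at 35830131 (strength 240.9, 9 other lists) and 35830289 (strength 210.1, 6 other lists) lay in one region 29102 bp or more from any ARF10 event. The last, on chromosome 2 at 39247210 (strength 234), was held by 5 other lists. The −log10 q was 19.86 for the event on chromosome 15 and 18.46 for that on chromosome 2. The events on chromosome 7 had 10.27 and 9.04, nearer to the median of 8.56 over the ARF25 list.

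Some shared sites were strong for one protein and near the threshold for the other. On chromosome 2 at 49430076 the ARF10 event had a percentile of 93.6 and its ARF25 partner 0.44, with ARF36 and 4 clade A lists present. On chromosome 16 at 1867557 the percentiles were 86.4 and 0.53, with 8 other lists, and on chromosome 12 at 11103747 they were 87.5 and 3.8, with ARF7 and ARF14. In the other direction, the pairs on chromosome 14 at 37829848 (3.61 in ARF10 and 88.6 in ARF25), chromosome 19 at 24941529 (0.26 and 84.9) and chromosome 18 at 47795278 (3.61 and 87.8) were held by 4, 4 and 3 of the other clade B lists and by 2, 1 and 1 clade A lists.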

How the data were processed

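DAP-seq event lists of 12 maize ARFs on soybean leaf DNA were used, with samples grouped by title. Per the submitters' processing notes, reads were trimmed with Trimmomatic 0.36 and aligned with Bowtie2. The event caller GEM appears only in file titles. Its settings, its filters and the genome build are not stated by the labels or files. There is 1 list per sample. Each deposited row is a window of 201 bp with its event at offset 100. The deposited strength, a signal value with no stated normalization, served as a rank within its list. The authors' −log10 p and −log10 q columns stop at a ceiling of 999, and the q column served as a filter in 1 alternative.

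An event position was column 2 plus column 10, printed 1-based. Events within 100 bp, ends included, were shared. Percentiles gave ties their mean rank, and ties were frequent (97.8% of ARF10 and 97.6% of ARF25 events shared their strength with another). Pairs were mutual nearest neighbours. Values were computed with pandas 2.3.3, numpy 2.4.6 and scipy 1.17.1 under Python 3.11.15 and plotted with matplotlib 3.10.9, and the code was tested on simulated data. Alternatives were other distances (50 and 200 bp), a q filter, equal list lengths and leaving out each other list. After seeing the data, the weaker events alone and the unpartnered events beyond 1000 bp were added, with 2 of the clade tests.

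Members and tests were chosen with earlier results of these data known. The rule for named sites took the 5 shared pairs of highest mean percentile, the 5 strongest events of each unpartnered class and the 3 largest percentile shifts in each direction. Depth is unknown, and Wilson intervals cover counting error only.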

Additional observations from a re-analysis of the deposited data

Results flagged for a closer look

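A pair of results differed between the clades by a test of the difference itself. The log2 ratio of the ARF25-only to the ARF10-only share was higher in the 4 other clade B lists than in the 6 clade A lists by 1.99. The log2 ratio of the shared to the ARF10-only share was higher in the clade B lists by 1.63, a test added after seeing the data. Both ratios divide by the ARF10-only shares of the same lists, so the second difference is not independent of the first. This second difference did not pass without ARF39 (1.04, adjusted exact permutation p = 0.057) or without ARF14 (1.59, adjusted exact permutation p = 0.054). The lists differ in length: the clade B lists held 4210 to 22516 events and the clade A lists 1106 to 35715. With each other list reduced to its 1106 strongest events the first difference was 2.89 and the second 3.84. Such ratios rest on few events: even at full length ARF18 held 50 ARF10-only events and ARF39 held 53. In 14 groups of 4 or 6 lists, over 7 measures, no end value stood apart by the gap criterion. The limit depends on the number of lists, and the value nearest to its own limit was that of ARF18 among the 6 clade A lists in the log2 ratio of the shared to the ARF25-only share, 1.84, with a gap of 0.61 of the range. Among the 4 clade B lists the largest gap was 0.65 of the range, for ARF39 in the log2 ratio of the ARF25-only to the ARF10-only share, 2.34.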

How the results depend on the processing

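The clade difference in ARF25-only over ARF10-only (1.99) kept its sign and passed under all 17 alternatives, from 1.43 at 50 bp to 2.89 with the other lists reduced to 1106 events (adjusted exact permutation p 0.0063 to 0.016), and from 1.57 to 2.22 leaving out 1 list. The mean of ARF25-only minus ARF10-only did not pass under any of them. Shared minus ARF25-only passed under all 17 (5.95 to 21 points). Shared minus ARF10-only ran from 14.1 to 18.6 leaving out 1 list and was 5.38, still passing, with the other lists reduced to 1106 events, but it missed the threshold when events under the median −log10 q were left out (14.6) and with events at or below the median percentile (9.84). The added ratio of shared over ARF10-only ran from 1.04 to 1.98 leaving out 1 list. The added ratio of shared over ARF25-only ran from -0.52 to -0.22 leaving out 1 list, passing without ARF39 (-0.52), passed at -0.59 with the q filter, -0.50 with the ARF25 list at the length of ARF10 and -0.53 at low percentiles, and reversed to 0.98 with the other lists at 1106 events. The cause was not tested.

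Values without a test moved as follows. At 50 bp the ARF10 and ARF25 shared shares were 70.0% and 45.6%, the median offset 11 bp, and the percentile differences of shared minus only 25.8 and 37.3. At 200 bp the shares were 79.1% and 52.5%. With the q filter there were 1418 ARF10-only and 4690 ARF25-only events, an offset of 11 bp, a rho of 0.65, an ARF10 percentile difference of 26.8, and middle shares of 40.1% (shared ARF10), 39.9% (shared ARF25) and 44.1% (ARF25-only). With equal lengths the shares were 63.6% and 64.3%, the counts 4477 and 4390, the rho 0.62, the percentile differences 35.9 and 32.6, and the middle shares 40.7%, 40.6% and 43.0%. No paired analysis was possible because each ARF has 1 library. Unknown depth limits every statement that a list lacks an event.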
